A study of Homo sapiens with 18 samples.

Results

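The translation initiation factors, or eIFs, are the proteins that bring the initiator tRNA, the messenger RNA and the ribosomal subunits together at the start codon. Members were the genes of the deposited count matrix whose Ensembl identifier maps to a protein-coding symbol that starts with EIF and a digit. The kinases of the EIF2AK group, the EIF4EBP and EIF4ENIF genes, EIF1AX, EIF1AY and pseudogenes were left out, which removed 97 other EIF symbols. The rule found 46 genes among the 57448 of the matrix, of which 19629 are protein-coding. Of these 46 members, 45 had at least 1 CPM (counts scaled to library size) in at least 3 of the 18 libraries and were tested. The remaining one, EIF4E1B, had at most 3 counts in any library and was not tested.

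RNA of MDA-MB-231 cells, a triple negative human breast cancer line, was sequenced after depletion of ribosomal RNA in 6 groups of 3 libraries, which were pooled and run on the sequencer in 2 runs. WT is the untreated parental line, and KO1 and KO2 are MB231-GPS2KO lines made from it by lentiviral delivery of Cas9 with a different set of sgRNAs against GPS2 for each, selected with puromycin and kept as heterogeneous pools rather than clones. MB231-myrAKT carries a retroviral AKT1 with a myristoylation signal that anchors the kinase to membranes and keeps it active. KO1+MK and KO2+MK are the same knockout pools after 4 h in 10 µM MK2206, an allosteric inhibitor of AKT, and no WT or MB231-myrAKT cells received the drug. KO stands for both KO1 and KO2, and KO+MK for both treated pools. The libraries held 33725461 to 37128614 counts in WT, 37501225 to 39319910 in KO1, 35627965 to 39027425 in KO2 and 30287210 to 37046141 in MB231-myrAKT. The treated libraries were shallower than every untreated one, with 23419198 to 29365207 counts in KO1+MK and 27544978 to 29939536 in KO2+MK, and the part of depth in the MK2206 comparisons was not tested.

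Initiation starts when eIF2 carries the initiator tRNA to the small ribosomal subunit, where EIF1, EIF5 and the many-subunit eIF3 also bind. The cap-binding complex of EIF4E, an EIF4G scaffold and the helicase EIF4A1 or EIF4A2 recruits the messenger RNA, the loaded subunit scans for a start codon, and EIF5B joins the large subunit to it. The pathway from AKT through mTOR controls this step mainly at the protein level, through the phosphorylation of the 4E-binding proteins and of EIF4B, which counts of RNA do not report.

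The markers set for the line were present. VIM, AXL, CD44 and CAV1, which mark mesenchymal-like cells, had 1298 to 1817, 799 to 1401, 401 to 599 and 332 to 578 CPM over the 18 libraries. The epithelial marker CDH1 and the progesterone receptor gene PGR reached at most 0.128 and 0.137 CPM, and the estrogen receptor gene ESR1 0.692 to 1.38 CPM. Of the markers of other cells, PTPRC, ALB and NEFL reached at most 0.147, 0.0541 and 0.0259 CPM. The endothelial marker PECAM1 moved with the groups, at 3.38, 3.71 and 3.66 CPM in WT, 1.56, 1.89 and 1.72 CPM in KO1, 4.21, 3.92 and 3.82 CPM in KO2, 19.9, 21.04 and 22.5 CPM in MB231-myrAKT, 2.12, 1.78 and 1.65 CPM in KO1+MK and 2.93, 3.098 and 3.02 CPM in KO2+MK. So did the epithelial marker EPCAM, at 12.3, 11.8 and 11.98 CPM in WT, 10.04, 10.1 and 8.83 CPM in KO1, 8.54, 8.41 and 9.05 CPM in KO2, 3.16, 3.24 and 3.27 CPM in MB231-myrAKT, 7.24, 7.901 and 7.699 CPM in KO1+MK and 5.99, 6.02 and 7.07 CPM in KO2+MK. The knockout libraries were below WT for EPCAM, and the treated ones below the untreated ones. The summed level of the 4 markers of other cells was 3.55, 3.82 and 3.80 CPM in WT and 19.9, 21.2 and 22.6 CPM in MB231-myrAKT, with PECAM1 the most abundant of them, and the part of these markers in the results of any group was not tested.

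GPS2, the targeted gene, had 4.402, 4.89 and 4.42 CPM in the WT libraries, 4.53, 4.46 and 4.51 CPM in the libraries labelled KO1 and 5.901, 6.09 and 6.14 CPM in those labelled KO2. It had 6.02, 6.13 and 4.51 CPM in MB231-myrAKT, 5.12, 4.78 and 5.84 CPM in KO1+MK and 6.16, 5.91 and 5.59 CPM in KO2+MK. GPS2 RNA was therefore not lower in the knockout libraries, and counts per gene do not show whether a transcript was edited. The paper checked the knockdown by western blot and genomic PCR and reports it as effective. GPS2 shares 241 exon bases with EIF5A, and how reads there were counted is not known. AKT1 had 135, 134 and 136 CPM in WT, 145, 139 and 141 CPM in KO1, 136, 126 and 137 CPM in KO2, 121, 136 and 134 CPM in KO1+MK and 139, 129.9 and 121 CPM in KO2+MK. In MB231-myrAKT it had 242, 232 and 218 CPM, above every other library. MYC, whose protein binds the promoters of many translation genes, had 295, 268 and 279 CPM in WT, 320.5, 324 and 335 CPM in KO1 and 225, 216 and 242 CPM in KO2. It had 136, 143 and 118 CPM in MB231-myrAKT, 164, 204 and 205 CPM in KO1+MK and 184, 159.6 and 146 CPM in KO2+MK. Every MYC value in MB231-myrAKT and the treated pools lay below every WT and KO1 value, the KO1 values lay above all WT values, and the KO2 values below them.

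The members made up 1.03% to 1.04% of all counts in the WT libraries, 1.17% to 1.196% in KO1, 1.11% to 1.15% in KO2 and 0.958% to 1.02% in MB231-myrAKT. The share was 1.11% to 1.15% in KO1+MK and 1.10% to 1.13% in KO2+MK. Every KO and KO+MK library thus had a larger share of EIF counts than every WT library, and every MB231-myrAKT library a smaller one. MB231-myrAKT replicate 3, with the lowest EIF share, had the largest shares of mitochondrial (2.07%) and long noncoding RNA counts (1.29%) of all libraries. KO1+MK replicate 1 had the lowest EIF share of its group (1.11%), the fewest counts and 1.25% long noncoding RNA. The part of these signs in the results was not tested. Within the summed WT level of the members in CPM, the cap-binding and helicase factors of the eIF4 group held 39.5%, the eIF3 subunits 27.0%, the eIF2 and eIF2B group 13.7%, members best known for other roles 10.44%, and the start codon factors (EIF1, EIF1B, EIF5 and EIF5B) 9.37%.

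Levels of different genes were compared per length, as CPM per kb of the canonical transcript. In WT, EIF5A stood first at 530.0 ± 9.47 CPM per kb (SD, n = 3), followed by EIF4G2 at 303 ± 10.7, EIF4A2 at 273 ± 4.27, EIF4G1 at 233 ± 2.31 and EIF1 at 229.7 ± 3.57. EIF4G1 and EIF1 did not differ beyond their spread, whereas the gaps between the genes above them exceeded it. That spread covers replicates and not the choice of transcript length, so the order holds only for the canonical lengths. In CPM these genes ordered otherwise in WT, with EIF4G1 at 1258, EIF4G2 at 1148, EIF5A at 670, EIF1 at 537 and EIF4A2 at 514. EIF4E3 stood at 1.53 ± 0.0592 CPM per kb (SD, n = 3). EIF2S3B, EIF3C and EIF3CL, which have near-identical copies, had 6.08 ± 0.212, 4.81 ± 1.69 and 1.84 ± 0.627 CPM per kb and are not ranked. By role class, the median member stood at 68.2 CPM per kb for eIF3, 55.3 for eIF4, 38.3 for the members with other roles, 35.5 for the start codon factors and 24.4 for eIF2 and eIF2B.

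Several of these levels rest on reads that could be counted on more than 1 gene, and neither the strand setting nor the rule for such reads is given in the sources used here. Of the exon bases of EIF4A1, 47.4% lie in exons of other genes on the same strand, among them the read-through gene SENP3-EIF4A1, and the gene had only 367 to 800 counts in a library. Of those of EIF3L, 51.8% are shared. EIF3CL is a near-identical copy of EIF3C, EIF5AL1 of EIF5A, and EIF2S3B of EIF2S3. EIF5A shares 241 exon bases with GPS2, which lies on the opposite strand. The levels of these members cover only the reads assigned to them, and no order between EIF4A1 and EIF4A2, or between EIF3C and other subunits, is read from them.

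Groups were compared with edgeR's quasi-likelihood test with Benjamini-Hochberg adjustment over all 15587 genes tested. A gene is termed called, higher or lower at an adjusted p of at most 0.001, with no minimum fold change. The p-values measure the spread between replicate libraries, which may be technical, since the labels do not say whether replicates were separate cultures. Counts of bulk RNA cannot tell fewer cells of a type apart from less RNA per cell. Comparisons with WT share the same 3 WT libraries, and the MK2206 comparisons share the untreated knockout libraries with the comparisons of KO, so their values are given side by side.

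In MB231-GPS2KO, 12 of the 45 members were higher than in WT and 4 were lower, against 15.5% and 16.6% of all genes tested, so that the share of members called was 26.7% in the first direction and 8.89% in the second. The rises included EIF5, EIF3B, EIF3J, EIF2B1, EIF2S1, EIF4G1, EIF4G2 and EIF4E, and the falls were all in the eIF4 group, EIF4E3, EIF4A2, EIF4B and EIF4G3. The median log2 fold change was 0.15 over the members and 0.00 over all genes, and 32 members lay above 0. With all 18 libraries in 1 fit 22 members were higher (48.9%, against 24.3% of all genes), with the pools as separate groups 23 (51.1%, against 23.8%), and with a fold change of at least 1.5 only 1 (2.22%, against 4.07%). By class, 1 of the 4 start codon factors was higher, 2 of 11 eIF2 and eIF2B members, 2 of 14 eIF3 subunits, 3 of 10 eIF4 members and 4 of 6 members with other roles. In the last class the median was 0.42, and in the others it lay between 0.08 and 0.14. Without WT replicate 1 the number of lower members was 2 (against 11.7% of all genes), and without WT replicate 2 or WT replicate 3 it was 1 (11.1% and 10.2%). EIF4B (−0.22) lost its call without WT replicate 1, 2 or 3, KO1 replicate 1 or KO2 replicate 1 (highest adjusted p 0.00415), EIF4A2 (−0.29) without WT replicate 1, 2 or 3 (highest adjusted p 0.00171) and EIF4G3 (−0.21) without WT replicate 2 or 3 (highest adjusted p 0.00199), while that of EIF4E3 held without any 1 library.

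Each pool on its own gave more calls than both together as 1 group. KO1 had 22 members higher than WT, against 20.5% of all genes, and 4 lower, against 21.3%. KO2 had 15 higher, against 20.8%, and 8 lower, against 22.2%. The medians over the members were 0.15 and 0.12. In KO1 the lower members were the same 4 eIF4 genes, and without WT replicate 3 or KO1 replicate 1 only 2 were called (against 16.4% and 16.1% of all genes). In KO2 the lower members were these 4 together with EIF3M, EIF2S2, EIF2S3 and EIF2A.

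In MB231-myrAKT fewer members were called than in MB231-GPS2KO, with 3 higher than WT, against 12.7% of all genes, and 6 lower, against 17.3%. Those shares, 6.67% and 13.3% of the members, lie below the background in both directions in this fit. EIF5, EIF4E3 and EIF3H were higher, and EIF3M, EIF3F, EIF2B3, EIF4G2, EIF4H and EIF2S2 were lower. The median over the members was −0.07, against 0.02 over all genes, with 13 members above 0, a number that was 21 when libraries were scaled by upper quartiles or by their totals. The call of EIF2S2 (−0.24) was lost without WT replicate 1, 2 or 3 or MB231-myrAKT replicate 2 or 3 (highest adjusted p 0.00448), and that of EIF4H (−0.29) without WT replicate 2 or 3 (highest adjusted p 0.00150). DESeq2 called 3 members higher (6.67%, against 14.2% of all genes) and 11 lower (24.4%, against 18.5%). Without MB231-myrAKT replicate 1, 8 members were lower (17.8%, against 15.9%), so the lower share is above the background in these fits. At an adjusted p of 0.05, 4 members were higher (8.89%, against 26.4%) and 17 lower (37.8%, against 28.1%). With no filter beyond 1 count, 4 were higher (8.7%, against 5.28%) and 7 lower (15.2%, against 8.09%), above the background in both directions.

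MK2206 moved few members up and more down. In KO+MK against KO, 4 members were higher, against 12.8% of all genes, and 9 were lower, against 8.75%, or 8.89% and 20% of the members. The rises were EIF1, EIF5, EIF1B and EIF1AD, of which 3 are start codon factors. The falls were EIF3B, EIF3D, EIF3A, EIF4A1, EIF4E, EIF4G1, EIF4H, EIF2B5 and EIF5B. The 14 eIF3 subunits had log2 fold changes from −0.27 to −0.07, and 3 of them were called, but EIF3CL was above 0 without KO1 replicate 3 (0.01), KO2 replicate 3 (0.05), KO1+MK replicate 2 (0.04), KO2+MK replicate 2 (0.01) or KO2+MK replicate 3 (0.14). Without KO1 replicate 1 the lower members numbered 5 (against 6.95% of all genes), without KO1 replicate 3 they numbered 4 (6.88%), and without KO2+MK replicate 3 they numbered 5 (7.45%), while EIF3B, EIF3D, EIF2B5 and EIF4H were called without any 1 library. The lower members numbered 21 with all 18 libraries in 1 fit (against 19% of all genes), 19 with the pools as separate groups (16.7%), 14 with DESeq2 (13.8%), 12 with upper-quartile scaling (11.6%) and 6 with no filter beyond 1 count (3.49%). They numbered 4 with a replicate block (6.5%) and 0 with a fold change of at least 1.5 (2.03%).

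Within the pools the same 3 start codon factors and EIF1AD were higher after the drug. KO1+MK against KO1 had 4 higher members, against 10.9% of all genes, and 8 lower, against 8.26%. KO2+MK against KO2 had 5 higher, against 13.1%, the fifth being EIF5A2, and 9 lower, against 8.78%. Most of the falls depended on single libraries, and only EIF5B in KO1+MK (−0.27, adjusted p = 4.62e-05) and EIF3M in KO2+MK (−0.27, adjusted p = 3.19e-05) were called without any 1 library. Without KO1 replicate 1 or KO1 replicate 3 only 1 member (2.22%) was lower in KO1+MK, against 4.7% and 4.83% of all genes. In KO2+MK the number was 2 (4.44%) without KO2 replicate 1, against 5.21%, and 1 without KO2 replicate 3, against 6.03%, so in these 4 fits the members' share lies below the background. It was 3 without KO2+MK replicate 2 (against 4.88%), 4 without KO2+MK replicate 3 (6.65%) and 14 without KO2+MK replicate 1 (11%). Other settings gave more falls, with 13 in KO1+MK and 12 in KO2+MK under upper-quartile scaling (against 10.3% and 11.9% of all genes), 14 and 11 with DESeq2 (10.3% and 9.91%), and 18 and 13 with no filter beyond 1 count (5.97% and 4.76%). The 4 rises that the pools have in common were called without any 1 library in both.

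**Figure D1:**
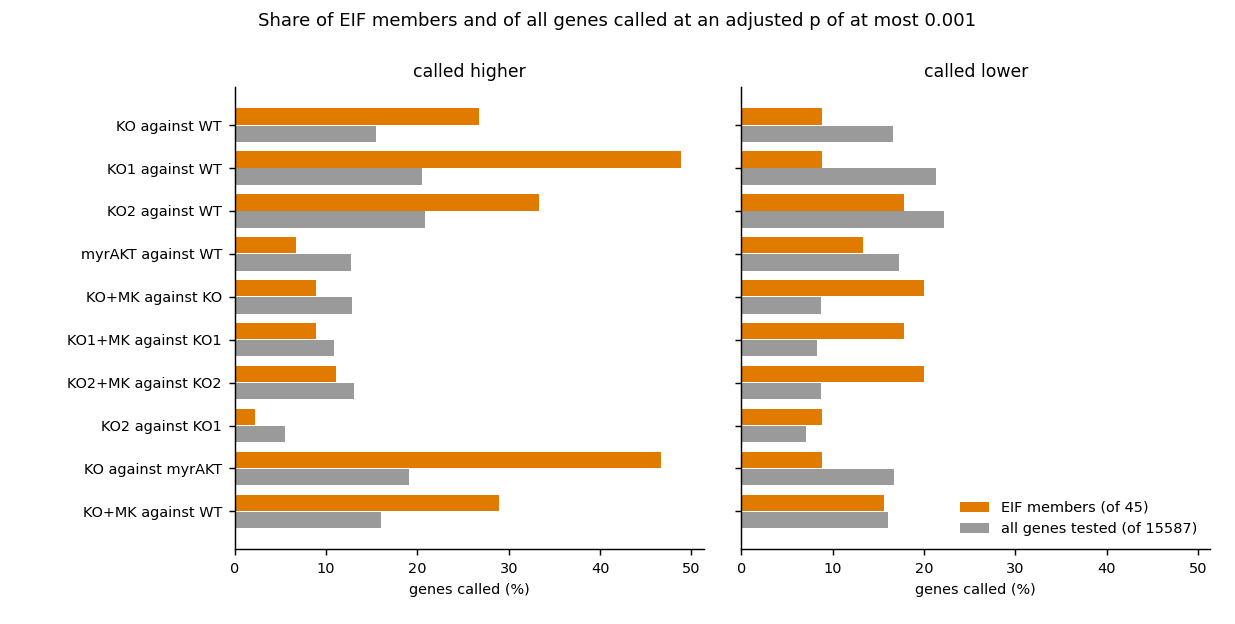
Share of the 45 tested EIF members (orange) and of all 15587 genes tested (grey) called higher (left) or lower (right) at an adjusted p of at most 0.001, in percent, for 10 comparisons. In KO1 against WT 48.9% of the members were higher, against 20.5% of all genes, and in MB231-myrAKT against WT 6.67%, against 12.7%.

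**Figure D2:**
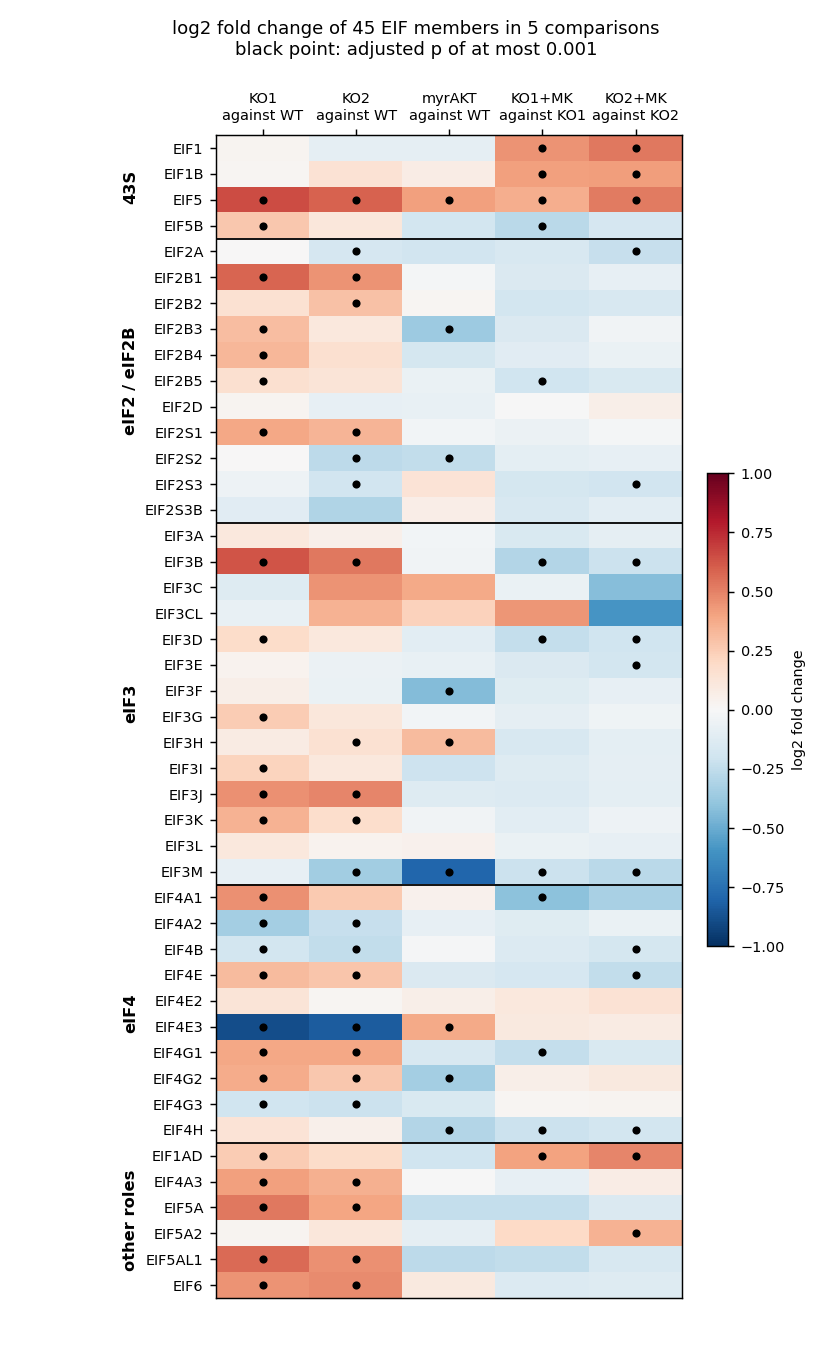
log2 fold change (colour) of each tested EIF member, grouped by role, in the comparisons of each pool and of MB231-myrAKT with WT and of each treated pool with its untreated cells. Black points mark an adjusted p of at most 0.001. EIF5 is called higher in all 5 columns, and EIF4E3 is lower in both pools and higher in MB231-myrAKT.

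Among the start codon factors, EIF5 activates the GTPase of eIF2 when the start codon is found. EIF5 (ENSG00000100664, chromosome 14, 103333544 to 103345025) had 174, 214 and 194 CPM in WT, 301, 313 and 314 CPM in KO1, 309, 284 and 288 CPM in KO2 and 273, 251 and 254 CPM in MB231-myrAKT. After MK2206 it had 380.4, 399 and 397 CPM in KO1+MK and 405, 421 and 424 CPM in KO2+MK. No library of any other group overlapped the WT libraries, the treated libraries were above all others, and within WT the lowest and the highest library were further apart than in the other groups. Its log2 fold change was 0.62 (standard error 0.0604, adjusted p = 5.76e-06) in KO, higher in 6 of 6 libraries than in any WT library, and 0.41 (standard error 0.0649, adjusted p = 9.72e-05) in MB231-myrAKT, higher in 3 of 3. It was 0.44 (standard error 0.0352, adjusted p = 3.13e-07) in KO+MK against KO, and 0.36 and 0.52 within KO1 and KO2. Against WT the treated pools stood at 1.05 (adjusted p = 2.37e-07). All of these calls held without any 1 library and under each alternative at the same thresholds, and EIF5 and EIF3B were called in the most comparisons, 8 of 11.

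EIF1, which holds the scanning complex open until the start codon is reached, had 534, 530.3 and 546 CPM in WT, 552, 551 and 558 CPM in KO1, 514, 488 and 521 CPM in KO2 and 517, 529 and 473 CPM in MB231-myrAKT. The treated libraries had 725, 755 and 752 CPM in KO1+MK and 706, 709 and 754 CPM in KO2+MK, above every untreated library. The rise with MK2206 was 0.49 (standard error 0.03503, adjusted p = 1.38e-07), seen in 6 of 6 treated libraries, whereas KO against WT gave −0.04 (adjusted p = 0.511) and MB231-myrAKT against WT −0.09 (adjusted p = 0.130). Its paralog EIF1B rose by 0.42 (adjusted p = 1.33e-05) with the drug, from a median of 37.1 CPM in KO to 48.5 CPM in KO+MK without overlap, and was not called in KO (0.08) or MB231-myrAKT (0.07). EIF5B, the GTPase of subunit joining, went the other way. It was higher in KO1 than in WT (0.27, adjusted p = 3.74e-06) and lower after MK2206 (−0.22, adjusted p = 0.000550). The latter call was lost without any of the KO1 replicates, KO1+MK replicate 3, KO2+MK replicate 2 or KO2+MK replicate 3 (highest adjusted p 0.00166).

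Of the eIF2 trimer, EIF2S1, the subunit that stress kinases phosphorylate, was higher in KO (0.36, adjusted p = 5.04e-06) and in both pools. EIF2S2, its beta subunit, was lower in KO2 (−0.26, adjusted p = 1.07e-05) and not called in KO1 (0.01). EIF2S3, the subunit that binds GTP and the initiator tRNA, was lower in KO2 (−0.19, adjusted p = 0.000176), a call that was lost without WT replicate 2 (highest adjusted p 0.00105). In KO2 the called subunits of the trimer thus had different signs, while in KO1 only EIF2S1 was called.

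The eIF2B complex recharges eIF2 with GTP, and of its subunits only EIF2B1 was called in KO. For each subunit the untreated knockout libraries all lay above all WT libraries, as they did for 4532 of the 15587 genes tested. EIF2B1 (ENSG00000111361, chromosome 12, 123620406 to 123633766), the alpha subunit, had 47.6, 45.6 and 42.9 CPM in WT, 65.7, 67.6 and 72.5 CPM in KO1, 65.03, 60.99 and 60.97 CPM in KO2, 47.6, 43.1 and 43.9 CPM in MB231-myrAKT, 57.8, 63.1 and 61.9 CPM in KO1+MK and 59.8, 59.2 and 55.4 CPM in KO2+MK. All knockout libraries, treated or not, were above all WT and MB231-myrAKT libraries. The log2 fold change in KO was 0.51 (standard error 0.06003, adjusted p = 2.24e-05), higher in 6 of 6 libraries, against −0.02 (adjusted p = 0.762) in MB231-myrAKT and −0.12 (adjusted p = 0.0461) with MK2206.

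EIF2B3, the gamma subunit, had 28.97, 27.9 and 27.9 CPM in WT, 36.1, 34.5 and 35.7 CPM in KO1, 29.99, 29.99 and 31.5 CPM in KO2, 22.8, 22.1 and 21.2 CPM in MB231-myrAKT, 32.5, 32.6 and 29.8 CPM in KO1+MK and 29.7, 28.9 and 29.5 CPM in KO2+MK. The MB231-myrAKT libraries were the lowest, and the KO1 libraries the highest. It was lower in MB231-myrAKT (−0.37, standard error 0.0529, adjusted p = 4.16e-05, in 3 of 3 libraries) and higher in KO1 (0.31, adjusted p = 2.44e-05), with 0.10 (adjusted p = 0.0515) in KO2. EIF2B5, the catalytic epsilon subunit, had 96.2, 93.1 and 94.2 CPM in WT, 109, 104 and 108 CPM in KO1, 105, 100.03 and 107 CPM in KO2, 96.3, 88.4 and 87.3 CPM in MB231-myrAKT, 89.6, 93.8 and 91.3 CPM in KO1+MK and 97.1, 88.2 and 90.5 CPM in KO2+MK. Each untreated knockout library was above each treated one, and the treated libraries overlapped WT. The fall with MK2206 was small, −0.18 (standard error 0.0288, adjusted p = 0.000164), and was not called with no filter on low counts. The rise of EIF2B5 in KO1 (0.16, adjusted p = 0.000556) was lost without WT replicate 2 or 3 or KO1 replicate 1 or 3 (highest adjusted p 0.00393). EIF2B2 was higher in KO2 (0.29) and EIF2B4 in KO1 (0.33). EIF2D, an alternative initiator tRNA factor, was called in no comparison, and neither were EIF3CL, EIF3L and EIF4E2 among the tested members.

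EIF3B, the scaffold subunit of eIF3, had both the largest rise of its class in KO and the largest fall of its class that was called with MK2206. EIF3B (ENSG00000106263, chromosome 7, 2354086 to 2380745) had 253, 269 and 257 CPM in WT, 406, 391 and 421 CPM in KO1, 386, 367 and 376 CPM in KO2 and 268, 255 and 238 CPM in MB231-myrAKT. After the drug it had 299, 340.1 and 336 CPM in KO1+MK and 332, 318 and 308 CPM in KO2+MK. The treated libraries fell below all untreated knockout libraries and stayed above all WT libraries. The log2 fold changes were 0.57 (standard error 0.0463, adjusted p = 1.50e-06) in KO, higher in 6 of 6 libraries, and −0.26 (standard error 0.0392, adjusted p = 9.82e-05) with MK2206, lower in 6 of 6. MB231-myrAKT overlapped WT (−0.04, adjusted p = 0.519). KO+MK remained above WT (0.31, adjusted p = 0.000148), a call lost without WT replicate 1 or WT replicate 3 (highest adjusted p 0.00156).

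EIF3M, another subunit of eIF3, had the largest change of its class in MB231-myrAKT against WT. EIF3M (ENSG00000149100, chromosome 11, 32583798 to 32606264) had 212, 208 and 213 CPM in WT, 195, 205 and 205 CPM in KO1, 163, 163 and 173 CPM in KO2, 126, 128 and 115 CPM in MB231-myrAKT, 162, 176 and 174 CPM in KO1+MK and 140.0, 132 and 137 CPM in KO2+MK. All other groups lay below WT, the MB231-myrAKT libraries lowest of all, and KO2 lay below KO1 with and without the drug. The log2 fold change was −0.79 (standard error 0.0451, adjusted p = 3.89e-09) in MB231-myrAKT, lower in 3 of 3 libraries, and −0.35 (adjusted p = 1.03e-06) in KO2, against −0.08 (adjusted p = 0.0279) in KO1. With the pools as 1 group it was −0.22 (adjusted p = 0.0311), and −0.24 (adjusted p = 0.0296) with MK2206, although each pool alone passed for the drug (−0.22 in KO1+MK, a call lost without KO1 replicate 1, 2 or 3 with a highest adjusted p of 0.00358, and −0.27 in KO2+MK).

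Calls of other eIF3 subunits had different signs. EIF3J, a loosely bound subunit, was higher in KO (0.46, adjusted p = 6.80e-07) and not called in MB231-myrAKT (−0.13). EIF3F was lower in MB231-myrAKT (−0.44, adjusted p = 7.84e-07) and EIF3H higher there (0.31, adjusted p = 3.28e-05), and neither was called in KO (−0.01 and 0.11). The rise of EIF3H in KO2 (0.15, adjusted p = 0.000962) was lost without any 1 of the 6 libraries compared (highest adjusted p 0.0144). EIF3D, a subunit that can itself bind the cap of some messengers, was higher in KO1 (0.19, adjusted p = 5.06e-05) and lower with MK2206 (−0.22, adjusted p = 0.000234). EIF3K was higher in KO1 (0.35, adjusted p = 3.35e-07) and in KO2 (0.18, adjusted p = 0.000876), the latter lost without WT replicate 1, 2 or 3 or KO2 replicate 1 or 3 (highest adjusted p 0.0142). EIF3A fell by 0.12 on the log2 scale with MK2206 (adjusted p = 0.000833), a call that only the fit without KO2+MK replicate 1 kept when libraries were left out (highest adjusted p 0.00262). EIF3C and EIF3CL spread widely between replicates, at 250 to 801 and 38 to 338 counts, and their direction in KO against WT turned without WT replicate 1.

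In the cap-binding group, EIF4E3, a divergent cap-binding paralog with a low level, had the largest change of any member in KO. EIF4E3 (ENSG00000163412, chromosome 3, 71675414 to 71754773) had 15.5, 14.6 and 15.7 CPM in WT, 8.04, 9.33 and 7.75 CPM in KO1, 8.59, 8.41 and 8.78 CPM in KO2 and 19.4, 19.8 and 20.5 CPM in MB231-myrAKT. With MK2206 it had 8.45, 9.27 and 8.66 CPM in KO1+MK and 8.44, 9.44 and 9.11 CPM in KO2+MK. All 12 knockout libraries were below all WT libraries, all MB231-myrAKT libraries above them, and treated and untreated knockout libraries overlapped. Relative to WT, EIF4E3 stood at −0.87 (standard error 0.06602, adjusted p = 1.01e-06) on the log2 scale in KO, lower in 6 of 6 libraries, and 0.38 (standard error 0.0631, adjusted p = 0.000168) in MB231-myrAKT, higher in 3 of 3. The latter call was lost without WT replicate 2 or MB231-myrAKT replicate 2 (highest adjusted p 0.00134). With MK2206 it was 0.09 (adjusted p = 0.223), and the direct comparison of KO with MB231-myrAKT gave −1.24 (adjusted p = 3.70e-08).

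EIF4E itself, the main cap-binding protein, ranged from 67.1 to 71.9 CPM with a median of 70.2 in KO and from 55.8 to 63.8 CPM with a median of 59.5 in KO+MK, against 57.6, 55.5 and 56.8 CPM in WT. All 6 untreated knockout libraries were above WT and above all treated libraries, while the treated and the WT libraries overlapped. It was higher in KO (0.29, adjusted p = 3.09e-05) and lower with MK2206 (−0.21, adjusted p = 0.000326), the latter lost without KO1 replicate 1 or KO1 replicate 3 (highest adjusted p 0.00107). EIF4G1, the main scaffold, was likewise higher in KO (0.38, adjusted p = 2.18e-06) and lower with the drug (−0.20, adjusted p = 0.000337). The second call was lost without KO1 replicate 3, KO2 replicate 1, KO1+MK replicate 2 or KO2+MK replicate 3 (highest adjusted p 0.00119). EIF4G2, a scaffold that lacks the EIF4E binding site, was higher in KO (0.31, adjusted p = 0.000119), lower in MB231-myrAKT (−0.34, adjusted p = 7.59e-05) and not called with MK2206 (0.08). EIF4G3, the third scaffold, was lower in KO2 (−0.22, adjusted p = 4.06e-05) and KO1 (−0.20), the KO1 call lost without WT replicate 3 or KO1 replicate 1 (highest adjusted p 0.00238).

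EIF4A1, the RNA helicase of the complex, had 15.1, 15.3 and 14.1 CPM in WT, 21.1, 20.4 and 20.4 CPM in KO1, 17.2, 18.1 and 18.5 CPM in KO2 and 15.4, 15.6 and 15.1 CPM in MB231-myrAKT. After MK2206 it had 15.3, 14.1 and 16.3 CPM in KO1+MK and 13.6, 15.9 and 12.9 CPM in KO2+MK. The untreated knockout libraries were above all others, and the treated libraries overlapped WT. The log2 fold change was 0.46 (standard error 0.0573, adjusted p = 5.84e-06) in KO1, higher in 3 of 3 libraries, and 0.36 (adjusted p = 0.00130) with both pools, which passed without KO2 replicate 1 or KO2 replicate 2 and with DESeq2. With MK2206 it was −0.37 (standard error 0.0693, adjusted p = 0.000532), lower in 6 of 6 libraries. That call was lost without any of the KO1 replicates, KO1+MK replicate 2, KO2+MK replicate 1 or KO2+MK replicate 3 (highest adjusted p 0.00170). EIF4A2, its paralog, was lower in KO1 (−0.34, adjusted p = 2.28e-07). EIF4B and EIF4H both assist the helicase. EIF4B was lower in KO2 (−0.25, adjusted p = 3.83e-05), and EIF4H was called lower in MB231-myrAKT and with MK2206 (−0.20, adjusted p = 0.000254) but not in KO (0.09).

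Of the 6 members whose best known role lies elsewhere, 5 were higher in KO1 than in WT and 4 in KO2, against 20.5% and 20.8% of all genes. EIF4A3, the helicase of the exon junction complex, was higher in KO (0.38, adjusted p = 4.95e-06), as were EIF6, which keeps the ribosomal subunits apart (0.45, adjusted p = 1.94e-06), and EIF5A, the hypusine-carrying factor of elongation (0.46, adjusted p = 2.77e-05). EIF5AL1 (ENSG00000253626, chromosome 10, 79512533 to 79516440), the copy of EIF5A, had 28.2, 30.5 and 29.8 CPM in WT, 45.4, 39.9 and 47.6 CPM in KO1, 39.8, 40.5 and 41.6 CPM in KO2, 26.5, 24.7 and 23.2 CPM in MB231-myrAKT, 33.5, 38.02 and 38.6 CPM in KO1+MK and 38.4, 34.2 and 35.3 CPM in KO2+MK. All knockout libraries were above WT, all MB231-myrAKT libraries below it, and treated libraries were below untreated ones. The change in KO was 0.51 (standard error 0.0647, adjusted p = 4.33e-05), higher in 6 of 6 libraries, against −0.26 (adjusted p = 0.00205) in MB231-myrAKT and −0.20 (adjusted p = 0.00595) with MK2206. EIF5AL1 and EIF5A moved alike, and how their reads were divided is not known.

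EIF1AD, named for its domain shared with eIF1A, had 44.5, 47.3 and 48.8 CPM in WT, 59.7, 53.8 and 56.4 CPM in KO1, 55.7, 49.9 and 55.03 CPM in KO2, 44.6, 39.04 and 39.2 CPM in MB231-myrAKT, 72.5, 75.9 and 72.5 CPM in KO1+MK and 73.3, 69.8 and 78.9 CPM in KO2+MK. Every treated library was above every untreated one, and the untreated knockout libraries were above WT. The rise with MK2206 was 0.44 (standard error 0.0406, adjusted p = 1.05e-06), seen in 6 of 6 libraries, and KO against WT gave 0.21 (adjusted p = 0.00507), which passed without KO2 replicate 2 and with DESeq2. Against WT the treated pools stood at 0.65 (adjusted p = 8.38e-07).

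**Figure D3:**
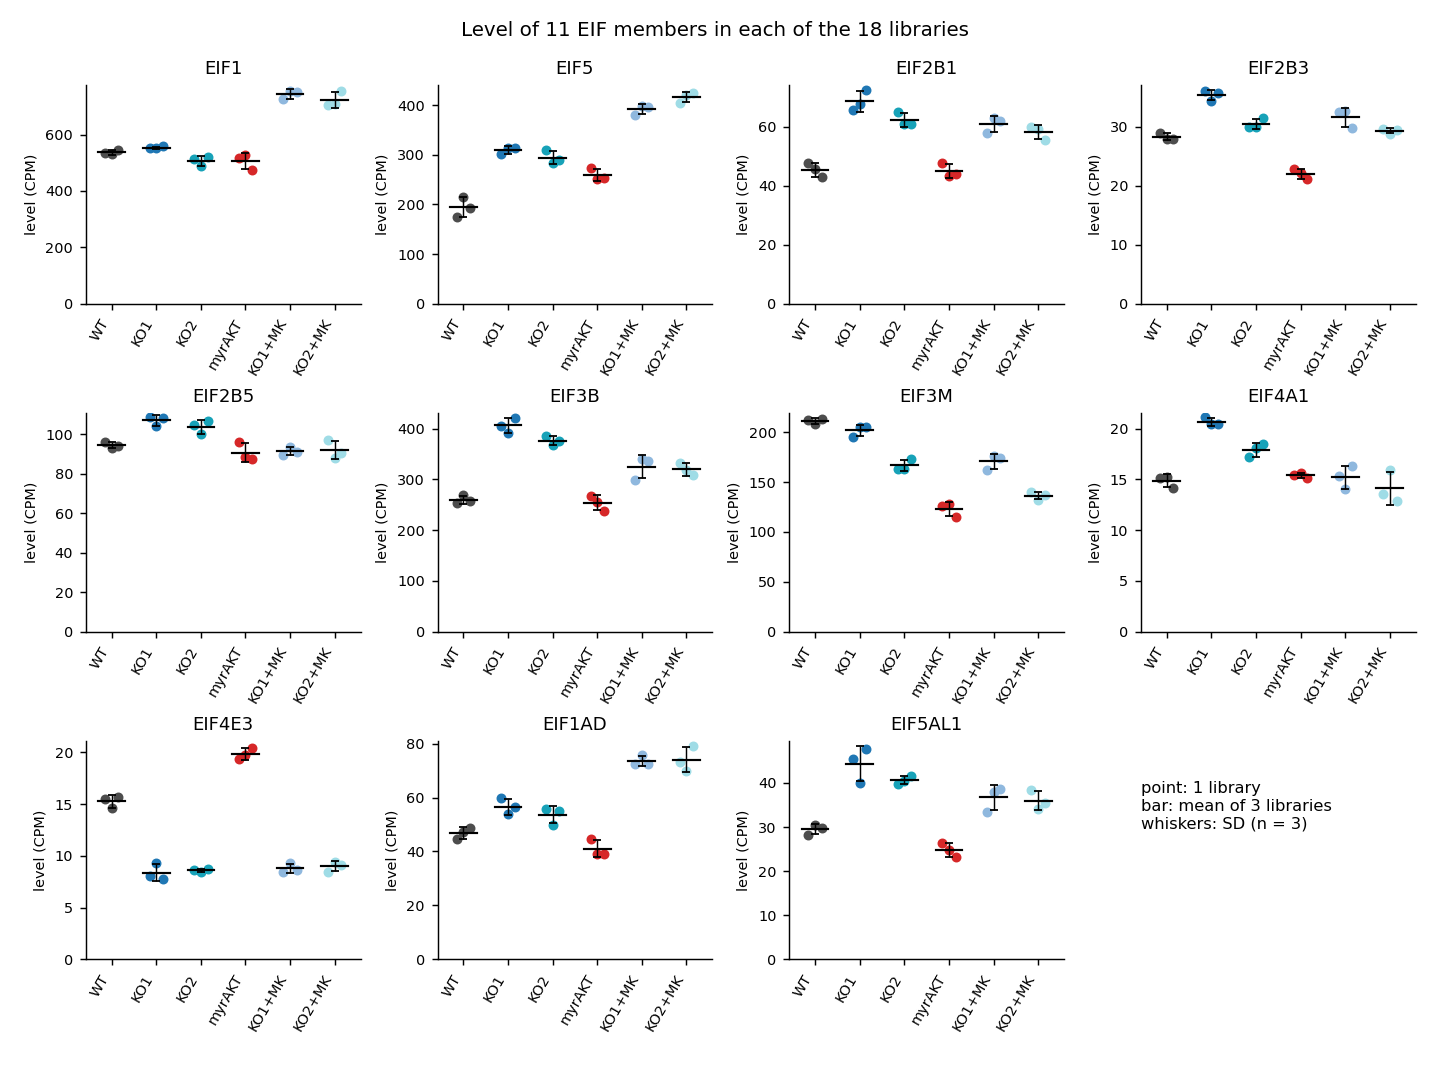
Level in CPM (linear axes from 0) of 11 EIF members in each of the 18 libraries, 1 point per library, with the mean and SD of the 3 libraries of each group. EIF1, EIF5 and EIF1AD are highest in the treated pools, EIF4E3 falls from 14.6 to 15.7 CPM in WT to 7.75 to 9.33 CPM in the untreated pools, and EIF3M is lowest in MB231-myrAKT.

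Levels within the paralog sets are given by group. Per kb of transcript, EIF1 exceeded EIF1B in every group, with 229.7 ± 3.57 against 35.3 ± 1.89 CPM per kb (SD, n = 3) in WT and 309 ± 11.5 against 51.7 ± 2.26 in KO2+MK. On the same scale EIF4E2, a cap-binding repressor, exceeded EIF4E and EIF4E3, with 55.3 ± 0.555, 23.3 ± 0.416 and 1.53 ± 0.0592 CPM per kb in WT and 61.3 ± 0.473, 29.4 ± 0.371 and 0.839 ± 0.0843 in KO1. The order of EIF4E2 and EIF4E rests on their canonical lengths, 967 and 2427 bases, since in CPM they had 53.5 and 56.6 in WT. EIF4E1B was at most 0.10 CPM in any library. Among the scaffolds the order per kb of canonical transcript was EIF4G2, EIF4G1, EIF4G3, with 303 ± 10.7, 233 ± 2.31 and 25.2 ± 0.134 CPM per kb in WT and 396 ± 8.78, 308 ± 8.32 and 22.3 ± 0.914 in KO1. In CPM, EIF4G1 was above EIF4G2 in WT, at 1258 and 1148, and their canonical lengths are 5405 and 3794 bases. In MB231-myrAKT EIF4G2 stood at 240.3 ± 12.2 and EIF4G1 at 209 ± 7.701 CPM per kb, the smallest gap between them in any group on this per-length scale. EIF5A stood at 530.0 ± 9.47 CPM per kb in WT and 772 ± 42.4 in KO1, against 6.27 ± 0.1395 and 6.48 ± 0.2304 for EIF5A2, which was called only in KO2+MK against KO2 (0.35, adjusted p = 5.64e-05), a call lost without KO2+MK replicate 2 (highest adjusted p 0.001001). EIF4A2 fell from 273 ± 4.27 CPM per kb in WT to 218 ± 4.99 in KO1, and EIF4A1 had 8.45 ± 0.355 and 11.7 ± 0.227. EIF2S3 and its copy EIF2S3B had 88.1 ± 1.88 and 6.08 ± 0.212 CPM per kb in WT and 67.1 ± 2.18 and 4.54 ± 0.283 in KO2+MK, and EIF3C and EIF3CL 4.81 ± 1.69 and 1.84 ± 0.627 in WT.

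**Figure D4:**
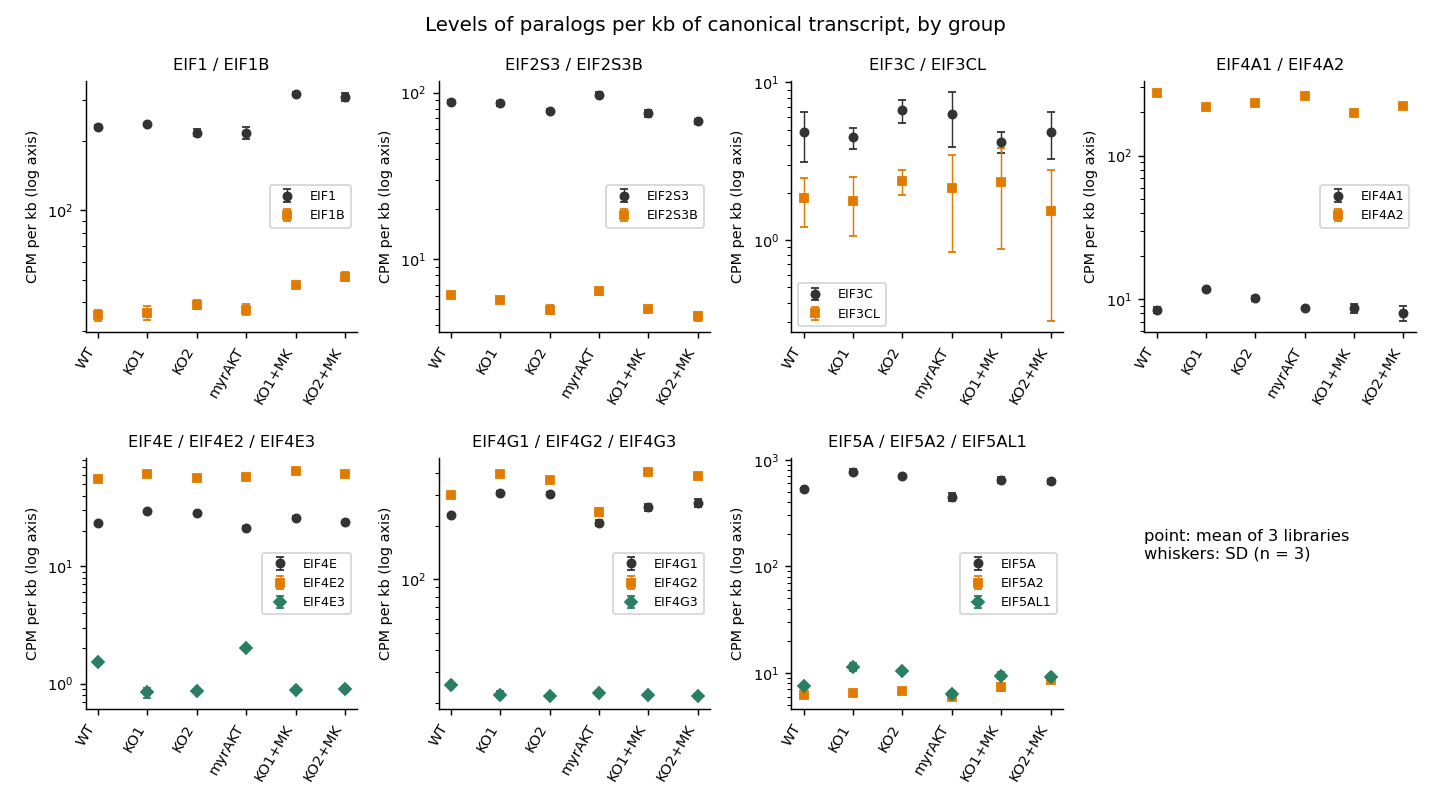
Mean level of the paralogs of 7 sets in CPM per kb of canonical transcript (log axes), with the SD of the 3 libraries of each group. EIF4E3 lies below EIF4E and EIF4E2 in all 6 groups, and EIF3C and EIF3CL have the widest whiskers.

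The MYC binding motif was searched as a description, since MYC RNA differed between the groups. The motif CACGTG, the same on both strands, was sought in windows from 250 bases before to 50 bases after the annotated start sites of RefSeq genes (GRCh38.p14), which held 55 windows of 39 members. It was found in 10 of these 55 windows (18.2%), against 7.26% of all 35116 windows and 9.04% of the 16059 windows of genes tested. The windows with the motif belonged to EIF1B, EIF2B3, EIF3F, EIF3K, EIF4A3, EIF4B, EIF4E, EIF4G1, EIF4H and EIF5A2. Of the genes that hold it, EIF4E, EIF4G1 and EIF4A3 were called higher and EIF4B lower in KO, and the others were not called there. The call of EIF4B was lost without several single libraries. Over all genes tested, 15.5% were higher and 16.6% lower in KO. The 250 bases before the start are shown for EIF4E, with motifs starting 225 and 72 bases before it, and, without the motif, for EIF3B, the largest rise of the eIF3 subunits in KO, and EIF1, the largest rise with MK2206. Capitals mark the motif, the sequences are from GRCh38.p14, written in the direction of the gene, and none of these bases lies in an exon annotated in GENCODE release 44. EIF4E is on the minus strand at chr4:98929134-98929383, EIF3B on the plus strand at chr7:2354577-2354826, and EIF1 on the plus strand at chr17:41688635-41688884. The EIF3B bases precede a RefSeq start inside the gene as annotated in GENCODE (2354086 to 2380745). The bases before that GENCODE start are not shown.
EIF4E: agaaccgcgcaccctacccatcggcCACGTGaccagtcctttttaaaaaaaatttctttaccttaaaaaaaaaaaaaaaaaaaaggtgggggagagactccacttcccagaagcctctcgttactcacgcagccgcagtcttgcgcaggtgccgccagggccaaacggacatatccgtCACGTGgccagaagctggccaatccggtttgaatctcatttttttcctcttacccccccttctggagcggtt
EIF3B: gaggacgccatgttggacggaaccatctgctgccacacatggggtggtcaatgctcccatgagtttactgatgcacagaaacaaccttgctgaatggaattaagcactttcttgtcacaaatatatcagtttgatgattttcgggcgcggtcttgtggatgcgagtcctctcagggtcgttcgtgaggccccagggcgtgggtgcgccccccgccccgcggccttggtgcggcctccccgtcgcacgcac
EIF1: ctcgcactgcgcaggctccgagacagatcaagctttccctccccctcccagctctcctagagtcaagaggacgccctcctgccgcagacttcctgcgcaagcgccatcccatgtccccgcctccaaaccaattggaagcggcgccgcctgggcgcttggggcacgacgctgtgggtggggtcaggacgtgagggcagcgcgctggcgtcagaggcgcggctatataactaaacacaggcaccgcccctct
A match of letters is no evidence of binding, and a window without them says only that they are absent from it.

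Other genes of the pathway were counted in 4 lists. Of the 21 tested inhibitors, kinases and phosphatase subunits, 7 were higher and 3 lower in KO, 3 and 2 in MB231-myrAKT, and 9 and 1 with MK2206. Of the 12 partners of initiation, 7 were higher and 0 lower in KO, 1 and 4 in MB231-myrAKT, and 0 and 1 with MK2206. The 9 tested elongation and release factors had 4 higher and 0 lower in KO, 2 and 1 in MB231-myrAKT, and 0 and 1 with MK2206, and the 6 mitochondrial factors 1 and 1, 0 and 1, and 0 and 1. Over all genes tested, 15.5% were higher and 16.6% lower in KO, 12.7% and 17.3% in MB231-myrAKT, and 12.8% and 8.75% with MK2206. EIF4EBP3, with 0 to 22 counts, and EEF1G, with 0 counts in every library, were not tested.

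Genes of the first list are given first. EIF4EBP2, a 4E-binding protein that blocks EIF4E, had 126, 140.4 and 133 CPM in WT, 188, 185 and 192 CPM in KO1, 204, 199 and 196 CPM in KO2, 198, 181 and 186 CPM in MB231-myrAKT, 267, 269.5 and 270.1 CPM in KO1+MK and 286, 282 and 302 CPM in KO2+MK. All other groups were above WT and the treated libraries above all others, with log2 fold changes of 0.52 (adjusted p = 1.54e-06) in KO, 0.49 (adjusted p = 1.36e-06) in MB231-myrAKT and 0.55 (adjusted p = 8.45e-08) with MK2206. EIF4EBP1, the best known 4E-binding protein, was lower in MB231-myrAKT (−0.33, adjusted p = 6.31e-05) and had −0.24 (adjusted p = 0.0162) in KO and −0.27 (adjusted p = 0.0167) with MK2206. The pools differed, with 74.1, 71.9 and 75.2 CPM in WT, 69.6, 70.6 and 65.5 CPM in KO1 and 57.0, 55.0 and 60.5 CPM in KO2. PDCD4, which sequesters the helicase, was called in none of these 3 comparisons (0.22, 0.19 and 0.07), in which the pools were 1 group. Its KO1 libraries (180, 167 and 180 CPM) overlapped WT (176, 169 and 172 CPM), while its KO2 libraries (243, 224 and 223 CPM) were above both.

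DDIT4, an inhibitor of mTOR, had 69.03, 86.5 and 82.5 CPM in WT, 23.9, 26.3 and 21.04 CPM in KO1, 28.05, 30.4 and 33.1 CPM in KO2 and 109, 126 and 114 CPM in MB231-myrAKT. The knockout libraries were all below WT and the MB231-myrAKT libraries all above it, at −1.57 (adjusted p = 8.99e-07) and 0.54 (adjusted p = 2.80e-05). Its rise with MK2206 (0.52, adjusted p = 0.000480) was lost without KO1 replicate 1 or 2, KO2 replicate 1, any KO1+MK replicate, or KO2+MK replicate 2 or 3 (highest adjusted p 0.00176). SESN2, another inhibitor of mTOR, rose from 12.7 ± 1.600 and 8.57 ± 0.904 CPM in KO1 and KO2 to 24.3 ± 1.83 and 24.6 ± 4.19 CPM (SD, n = 3) in the treated pools (1.22, adjusted p = 5.57e-06). EIF2AK3, the eIF2 kinase of the endoplasmic reticulum, rose from 17.5 ± 0.339 and 16.3 ± 0.932 to 33.7 ± 0.413 and 32.4 ± 3.98 CPM (SD, n = 3) (0.99, adjusted p = 2.49e-08). MKNK2, a kinase of EIF4E, rose by 0.71 (adjusted p = 1.48e-07) with the drug. PPP1R15A, a subunit of the phosphatase that reverses the phosphorylation of eIF2, was higher in KO (0.77, adjusted p = 9.03e-07) and higher again with MK2206 (0.46, adjusted p = 1.60e-05), with 0.05 in MB231-myrAKT.

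Among the partners, DDX3X, an RNA helicase, had 379.6 ± 13.1 CPM in WT, 612 ± 22.7 CPM in KO1 and 638 ± 25.1 CPM in KO2 (SD, n = 3), a rise of 0.70 in KO (adjusted p = 2.72e-07) in 6 of 6 libraries. DHX29, a helicase that helps scanning through structured leaders, fell from 90.2 ± 0.3403 CPM in WT to 60.8 ± 2.71 CPM in MB231-myrAKT (SD, n = 3; −0.57, adjusted p = 5.40e-08). GSPT2, a release factor with a low level, had 7.102, 6.98 and 6.65 CPM in WT, 7.57, 7.899 and 7.17 CPM in KO1, 3.896, 3.48 and 4.44 CPM in KO2 and 1.42, 1.38 and 1.19 CPM in MB231-myrAKT. The MB231-myrAKT libraries were below all others (−2.39, adjusted p = 2.95e-09), and KO2 lay below WT and KO1.

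**Figure D5:**
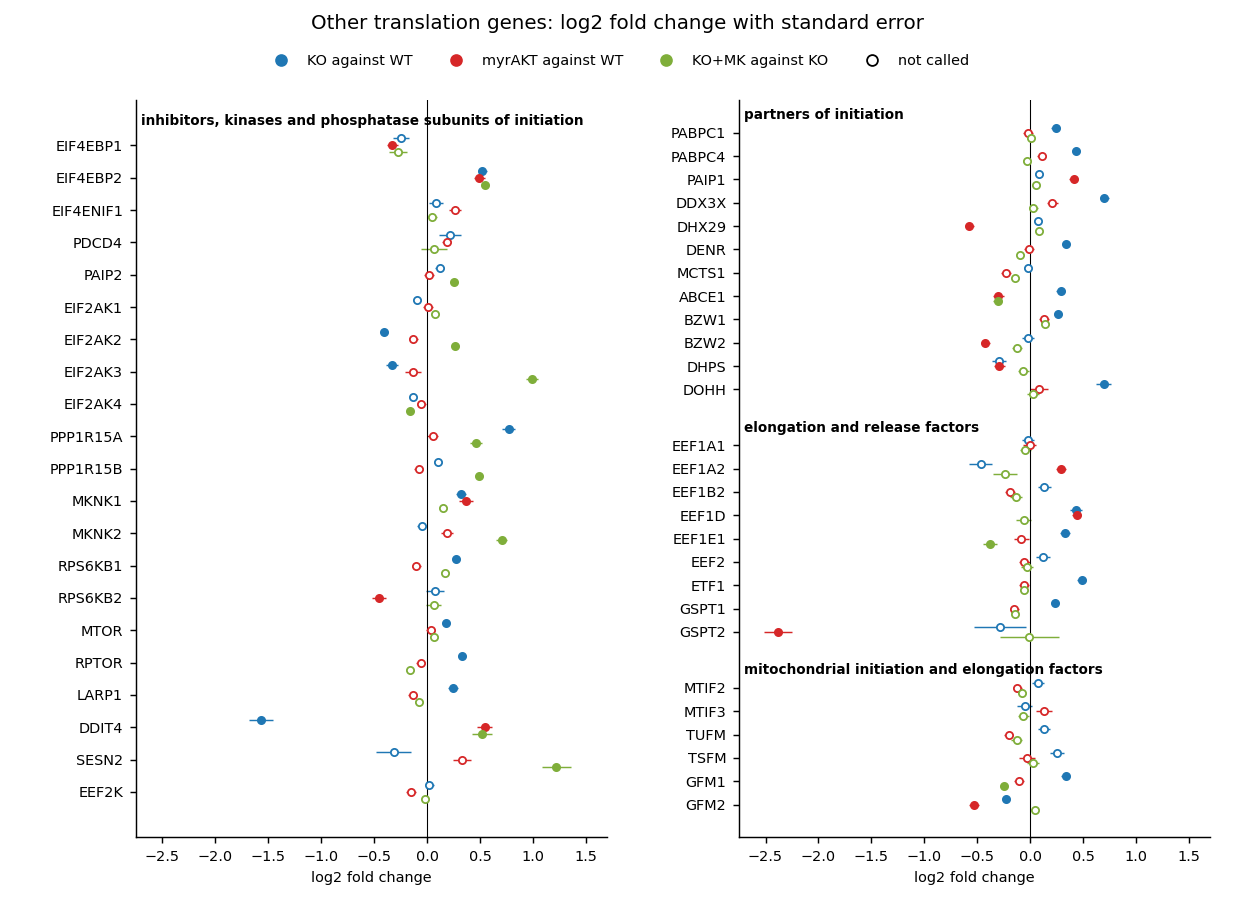
log2 fold change with standard error of the tested genes of 4 lists of other translation genes, for KO against WT (blue), MB231-myrAKT against WT (red) and KO+MK against KO (green). Filled points passed an adjusted p of 0.001. The furthest points are GSPT2 at −2.39 in MB231-myrAKT, DDIT4 at −1.57 in KO and SESN2 at 1.22 with MK2206.

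The knockout pools were compared with MB231-myrAKT directly, a comparison that uses no WT library. KO had 21 members higher than MB231-myrAKT, against 19.1% of all genes, and 4 lower, against 16.7%, or 46.7% and 8.89% of the members. The median over the members was 0.21. The higher members included EIF4G2 (0.65, adjusted p = 5.44e-07), EIF5A (0.69, adjusted p = 3.30e-06), EIF3B (0.61, adjusted p = 1.11e-06), EIF3M (0.57, adjusted p = 8.14e-05), EIF2B3 (0.57, adjusted p = 2.39e-05), EIF4G1 (0.54, adjusted p = 3.62e-07), EIF3F (0.43, adjusted p = 1.30e-05), EIF4E (0.43, adjusted p = 1.79e-06), EIF4H (0.38, adjusted p = 1.85e-05) and EIF5B (0.37, adjusted p = 7.50e-05). Of the 4 lower members, EIF4E3 was called without any 1 library. EIF2S3 (−0.26, adjusted p = 0.000699), EIF3H (−0.20, adjusted p = 0.000955) and EIF4B (−0.21, adjusted p = 0.000985) lost their call without most single libraries, with highest adjusted p of 0.00512, 0.00615 and 0.00843, and so did EIF2B5 and EIF3D among the higher ones (0.00718 and 0.00323). The lower members numbered 2 without KO1 replicate 1 or 2 or KO2 replicate 3 (against 14.9%, 15.5% and 15.5% of all genes), and 1 without KO1 replicate 3, KO2 replicate 1 or 2, or MB231-myrAKT replicate 1 or 2 (14.9%, 15.2%, 16.8%, 13.1% and 11.3%).

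The treated pools were also set against untreated WT. KO+MK had 13 members higher than WT, against 16.0% of all genes, and 7 lower, against 16.1%. The median over the members was 0.04 and had the opposite sign with upper-quartile scaling (−0.00200), without WT replicate 1 (−0.00791) and with no filter beyond 1 count (−0.0215). With no filter 9 members were higher (19.6%, against 5.3% of all genes) and 10 lower (21.7%, against 9.51%), so that both the members and all genes had more lower than higher calls. Of the start codon factors EIF5, EIF1 and EIF1B were higher, of the eIF4 group EIF4G2 alone, and EIF4E3, EIF4A2, EIF4B and EIF4G3 were lower. EIF4E (0.07, adjusted p = 0.245), EIF4G1 (0.17, adjusted p = 0.00724) and EIF4A1 (−0.03, adjusted p = 0.802) were not called. The number of lower members was 3 without WT replicate 1, 2 or 3 (against 11.1%, 10.9% and 10.1% of all genes) and 4 without KO2+MK replicate 1 (13.8%). The WT cells of this comparison were not treated, so the drug and the knockout cannot be told apart in it.

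The pools were also compared with each other. In KO2 against KO1, EIF3C was the 1 higher member, against 5.54% of all genes, and EIF2S2, EIF3M, EIF3K and EIF5B were the 4 lower ones, against 7.06%. EIF2S2 (−0.27, adjusted p = 8.27e-06) and EIF3M (−0.27, adjusted p = 8.10e-06) were called without any 1 library, lower in 3 of 3 KO2 libraries. EIF3C (0.58, adjusted p = 0.000458) was not called with DESeq2 or without any of the KO1 replicates or KO2 replicate 1 (highest adjusted p 0.00311), EIF3K (−0.17, adjusted p = 0.000624) not without any 1 library (highest adjusted p 0.00546), and EIF5B (−0.16, adjusted p = 0.000521) not without KO1 replicate 1 or 3 or KO2 replicate 1 or 3 (highest adjusted p 0.00542). The number of higher members was 0 without KO1 replicate 1 or 2 or KO2 replicate 1 (against 3%, 4.12% and 3.56% of all genes) and 2 without KO2 replicate 2 (5.04%). That of lower members was 2 without KO1 replicate 1 or 3 or KO2 replicate 1 or 3 (4.45%, 5.5%, 4.97% and 6.49%). Other settings gave 1 higher and 17 lower with no filter beyond 1 count (against 2.38% and 5.74% of all genes) and 0 and 7 with DESeq2 (6.43% and 7.5%).

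When the change with MK2206 in KO2 was set against that in KO1, edgeR called 0 members, against 0.0128% of all genes, with 3 members (6.67%) at an unadjusted p below 0.05, against 8.03% of all genes, and a lowest adjusted p of 0.370. These were EIF5 (0.16), EIF4A3 (0.15) and EIF5B (0.11), and DESeq2 also called 0, with 3 at an unadjusted p below 0.05, against 5.84% of all genes. With no filter beyond 1 count, EIF3CL was called lower (adjusted p = 1.42e-07), against −1.04 and an adjusted p of 0.698 with the filter, and its libraries vary widely within groups. Under the other alternatives 0 members were called.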

How the data were processed

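RNA of 18 libraries of MDA-MB-231 cells was measured as counts per gene. The authors deposited counts, 1 raw integer per gene and library, for 57448 Ensembl genes. Per the submitters' processing notes, reads were checked with FastQC and MultiQC, trimmed with Trim Galore, aligned to hg38 with HISAT2 and counted with featureCounts. Versions, annotation, strand setting and the rule for reads on several genes are not given in the sources used here. GENCODE release 44 named 56948 of the 57448 identifiers, and promoter windows came from RefSeq start sites on GRCh38.p14. Libraries held 23419198 to 39319910 counts. The members and the lists were chosen with earlier results of these data known.

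Groups were taken from the deposited sample labels. Genes reaching 1 CPM in 3 or more libraries were kept (15587 genes), scaled by TMM factors and compared with edgeR 4.0.16 (quasi-likelihood F test, Benjamini-Hochberg adjusted p of at most 0.001, no minimum fold change) under R 4.3.3 with limma 3.58.1. Each comparison was fitted on its own libraries, with the knockout pools as 1 group where KO is named. CPM values are counts over library totals and TMM factors, and values per kb divide them by the canonical transcript. Every library is printed for the called member with the largest change of each role class in KO against WT, myrAKT against WT and KO+MK against KO. Members called with opposite signs in a pair of comparisons and paralog sets are also named, and the others are counted. Alternatives tried were DESeq2 1.42.0, its size factors, upper-quartile factors, library totals, other thresholds, no filter beyond 1 count, all 18 libraries in 1 fit, the pools as separate groups, a replicate block and each library left out. EIF4E1B was left out of tests for its low counts. Tables and figures used Python 3.11.15, numpy 2.4.6, pandas 2.3.3 and matplotlib 3.10.9, and the scripts were tested on simulated data.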

Additional observations from a re-analysis of the deposited data

Results flagged for a closer look

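The untreated knockout pools carry the same genotype label and were compared with each other, where differences were not looked for in advance. In KO2 against KO1 the log2 fold changes of the members called by edgeR's quasi-likelihood test (Benjamini-Hochberg adjusted p of at most 0.001) were −0.27 for EIF2S2, 0.58 for EIF3C, −0.17 for EIF3K, −0.27 for EIF3M and −0.16 for EIF5B. These are 5 of 45 members (11.1%), against 12.6% of all genes, and only EIF2S2 and EIF3M were called without any 1 library. The libraries of EIF3C spread widely within groups. Among the other genes they were 0.37 for DDIT4, −0.93 for GSPT2, −0.56 for SESN2, −0.24 for EIF4EBP1, 0.40 for PDCD4 and −0.51 for MYC. The calls of DDIT4 (without KO1 replicate 1 or 3 or KO2 replicate 3), SESN2 and EIF4EBP1 (without KO1 replicate 1 or 2 or KO2 replicate 1) were lost with single libraries left out. Dixon's test on 25 genes in KO and in KO+MK found 0 libraries apart, but each of these groups mixes both pools, whose differences widen the spread. The WT and MB231-myrAKT libraries were not examined with it.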

How the results depend on the processing

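With no library left out, the number of members called by edgeR (Benjamini-Hochberg) changed with these settings. Percents in brackets are the shares of all genes called under the same setting. At an adjusted p of 0.05 it was 31 in KO against WT (59.6%), 35 in KO2 against WT (66.3%), 21 in myrAKT against WT (54.4%), 28 in KO+MK against KO (47.3%), 34 in KO1+MK against KO1 (45.2%), 27 in KO2+MK against KO2 (46.7%), 26 in KO2 against KO1 (34.1%). With a fold change of at least 1.5 it was 2 in KO against WT (12.7%), 3 in KO1 against WT (13.9%), 2 in KO2 against WT (16.7%), 1 in myrAKT against WT (13.8%), 6 in KO against myrAKT (16.2%), 3 in KO+MK against WT (15%), 0 in KO+MK against KO (6.53%), 0 in KO1+MK against KO1 (5.01%), 0 in KO2+MK against KO2 (7.06%), 0 in KO2 against KO1 (2.62%), in each case a smaller share of the members than of all genes. With all 18 libraries in 1 fit it was 27 in KO against WT (48.4%), 26 in KO+MK against KO (37.2%), 3 in KO2 against KO1 (9.53%), and with KO1 and KO2 as separate groups 30 in KO against WT (50%), 25 in KO+MK against KO (36.6%). DESeq2 called 14 in myrAKT against WT (32.7%). With no filter beyond 1 count it was 22 in KO1+MK against KO1 (11.4%), 18 in KO2 against KO1 (8.12%) and 1 for the MK effect in KO2 minus KO1 (0.149%). With a replicate block it was 8 in KO+MK against KO (16.9%), 11 in KO2 against KO1 (17%), 13 in KO+MK against WT (23%), with 4 lower members in KO+MK against KO and 9 in KO2 against KO1. The deposited replicate numbers do not pair samples (correlations of −0.518 to 0.297). The cause of these moves was not tested.

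With 1 library left out the number ran from 13 to 22 in KO against WT (21.8% to 31.8%), 22 to 27 in KO1 against WT (32.6% to 43.1%), 19 to 21 in KO2 against WT (34.3% to 44%), 6 to 11 in myrAKT against WT (22.4% to 28%), 8 to 13 in KO+MK against KO (17.5% to 19.9%), 5 to 17 in KO1+MK against KO1 (11.2% to 23.2%), 6 to 19 in KO2+MK against KO2 (13.8% to 25.4%), 2 to 5 in KO2 against KO1 (7.45% to 11.7%), 20 to 23 in KO against myrAKT (24.5% to 35.8%) and 12 to 21 in KO+MK against WT (20.1% to 31.8%), with the range of the share of all genes called in brackets.

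The sign of a log2 fold change turned for genes near 0 and for EIF3C and EIF3CL, whose replicates spread widely. The log2 fold change of EIF1, KO against WT, ran from −0.0512 without KO1 replicate 3 to 0.000691 without KO2 replicate 2. Likewise the log2 fold change of EIF3C, KO against WT, ran from −0.0715 without WT replicate 1 to 0.362 without WT replicate 3, and the log2 fold change of EIF3CL, KO against WT, from −0.0132 to 0.484 without the same libraries. Among other genes, the log2 fold change of AKT1, KO against WT, was −0.0100 with upper-quartile factors, −0.0133 with library totals, −0.000495 without KO1 replicate 3 and 0.0443 without KO2 replicate 2. When libraries were left out, the log2 fold change of MYC, KO against WT, was −0.0985 without KO1 replicate 3, 0.00370 without WT replicate 1, 0.0166 without KO2 replicate 1 and 0.0390 without KO2 replicate 2.

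In MB231-myrAKT the log2 fold change of EIF3CL, myrAKT against WT, ran from −0.13 without myrAKT replicate 1 to 0.627 without myrAKT replicate 2. With MK2206 the log2 fold change of EIF3CL, KO+MK against KO, was −0.410 without KO1+MK replicate 3, 0.01 without KO1 replicate 3, 0.05 without KO2 replicate 3, 0.04 without KO1+MK replicate 2, 0.01 without KO2+MK replicate 2 and 0.14 without KO2+MK replicate 3. Under other settings the log2 fold change of EIF4G3, KO+MK against KO, was −0.0122 with upper-quartile factors, −0.0121 with no filter beyond 1 count and −0.000968 with all 18 libraries in 1 fit. Outside the members, the log2 fold change of PDCD4, KO+MK against KO, ran from −0.00222 without KO2+MK replicate 3 to 0.128 without KO2 replicate 1.

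There are 3 libraries per group, no second cell line and no drug without knockout. None of the 6 groups is a control for viral delivery or for the puromycin selection of the knockout pools. The part of these steps in the differences from WT was not tested. Knockout pools are not clones, counts per gene do not show editing, and the counts used here hold no protein or phosphorylation values. Reads shared by EIF4A1, EIF3L, EIF3C, EIF5A and their copies cannot be divided from these counts.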
